A study of Mus musculus with 12 samples.

Results

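The integrin subunits of the mammary epithelium were followed here as 10 genes: the alpha subunits Itga2, Itga3, Itga5, Itga6 and Itgav, and the beta subunits Itgb1, Itgb4, Itgb5, Itgb6 and Itgb8. They were read by every probe set that the array's annotation assigns to exactly 1 of these symbols, which gave 29 of the 45037 probe sets that are not array controls. The whole array names 18193 genes. The RNA was that of mammary epithelial cells from FVB/N females, and the labels name the arrays biological replicates. The control group, 6 arrays, carried the MMTV-rtTA transgene alone. The p190B group, 6 arrays, carried MMTV-rtTA together with TetO-p190B-IRES-luciferase. All mice of both groups ate chow with doxycycline (2 g/kg) for 7 days from 5 weeks of age, which puts isolation at 6 weeks, so the activator and the drug are common to both genotypes. rtTA is a doxycycline-dependent activator, and the MMTV promoter directs it to mammary epithelium. The comparison asks whether transcripts differ when p190B is expressed from the transgene.

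Integrins are cell surface receptors made of an alpha and a beta chain. Outside the cell they bind matrix proteins such as laminin, collagen and fibronectin, and inside it they connect through talin and kindlin to actin. In the mammary gland the basal cells, which rest on the basement membrane, carry high levels of integrins that bind laminin, and alpha v paired with beta 6 or beta 8 releases active TGF-beta from its latent complex. Each value below is a MAS5 intensity on a linear scale, and the brightness of different probe sets cannot be compared, so subunits are not ranked against each other.

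All 10 genes had a probe set bright enough to test. Of the 29 probe sets, 24 passed the filter on dim signals, which was set on the mean over all arrays at about 101 intensity units. The 5 others read Itgav (1432678_at and 1432679_at) and Itgb1 (1426919_at, 1426920_x_at and 1438119_at), and none of them exceeded 101.9 units on any array. The suffix of a probe set says how specific its probes are: _a_at reads several transcripts of a gene, _s_at can read related transcripts, and _x_at holds probes that may also match other sequences. The spread over arrays differed between probe sets. The Itgb1 probe set 1452545_a_at varied by 4.31% (coefficient of variation over the 12 arrays), whereas the dim Itga3 probe set 1421997_s_at varied by 41.1%.

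The deposited arrays resembled each other closely, with pairwise correlations across tested probe sets between 0.957 and 0.987. Arhgap5, the gene of p190B, did not pass on any of its 4 probe sets, whose log2 differences ran from −0.32 to 0.41 with limma adjusted p from 0.258 to 0.925. Whether these probe sets read the transgene's RNA was not tested. Markers of several cell types were present on all arrays. The mean log2 level over the 12 arrays ran from 12.4 to 12.78 for basal, 13.47 to 13.89 for luminal, 12.69 to 13.44 for fibroblast, 11.94 to 12.61 for macrophage and 11.62 to 12.27 for endothelial markers. Of 6 marker lists, lymphocyte markers varied most, their mean log2 level running from 7.07 to 10.03 in control and from 6.52 to 10.11 in p190B. No marker passed in any of the 6 lists. The higher and lower tested markers numbered 3 and 7 for basal, 9 and 2 for luminal, 5 and 9 for lymphocyte, 9 and 1 for macrophage, 7 and 3 for fibroblast and 5 and 5 for endothelial cells. Of all tested probe sets 54.9% were higher. At an unadjusted limma p under 0.05, 4 of 11 luminal markers were higher and 1 lower, beside 9.32% of all tested probe sets. Their log2 differences were 0.16 for Krt18, 0.16 for Krt19, 0.29 for Elf5, 0.19 for Foxa1 and −0.48 for Cdh1. Cdh1 had a limma unadjusted p of 0.00186 and an adjusted p of 0.233. The macrophage list had 1 such marker, higher, and the remaining lists 0. In whole preparations fewer cells of a type and less RNA per cell cannot be told apart. p190B replicates 1 and 3 had the highest log2 3′ over 5′ ratio of Actb, 0.48 and 0.59 against 0.25 to 0.35 on all other arrays, and the highest 18S ribosomal signal. The log2 Gapdh ratio was −0.52 to −0.47 in control and −0.48 to −0.32 in p190B, so fits with that covariate have little of it left to separate from genotype. The log2 Actb ratio was 0.25 to 0.35 in control and 0.31 to 0.59 in p190B. Fits with the Actb ratio are therefore partly tied to genotype as well.

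No integrin subunit passed the test between genotypes when p-values were adjusted over the whole array. By limma, 0 of the 24 tested member probe sets reached an adjusted p of 0.05, where 10 of 27022 did on the whole array (0.037%). The lowest adjusted p among members was 0.228, for Itgb8, and the next was 0.450, for Itgb5. At an unadjusted p under 0.05 there were 5 member probe sets (20.8%), beside 9.32% of all tested probe sets. These 5 came from 3 genes, Itgb5 with 3 higher probe sets and Itgb8 and Itgav with 1 lower probe set each. The count was 2 without control replicate 5 or without p190B replicate 3, and 3 without control replicate 4, control replicate 6 or p190B replicate 1. Over the 24 probe sets the median log2 difference was 0.02 and 13 were higher in p190B. Over all tested probe sets the median was also 0.02, and 54.9% were higher.

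**Figure D1:**
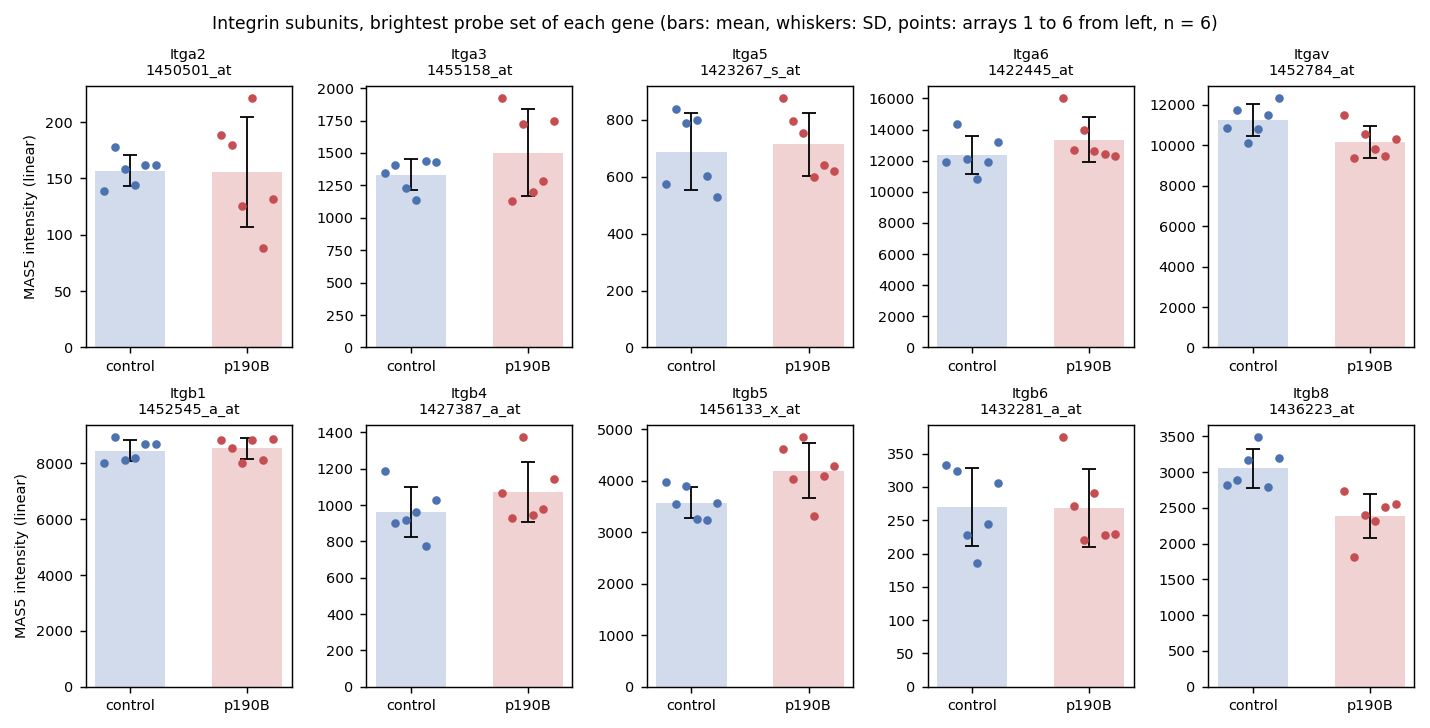
MAS5 intensity (linear, vertical axis from 0) of the brightest probe set of each of the 10 integrin genes. Bars are group means, whiskers are SD, and points are the 6 control and 6 p190B arrays. The groups are separate for Itgb8, where the highest p190B array (2731.8) lies below the lowest control array (2787.9), and overlap for the other 9 genes.

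Itgb8 encodes the beta 8 chain, which pairs only with alpha v and holds latent TGF-beta at the cell surface. Its single probe set, 1436223_at, ran from 2787.9 over a median of 3025.8 to 3483.9 units in control cells. In p190B cells it ran from 1818.7 over a median of 2454.8 to 2731.8. All 6 p190B arrays thus lay below all 6 control arrays, with p190B replicate 2 the lowest and p190B replicate 1 the nearest to control. Groups that do not overlap were seen for 0.877% of all tested probe sets, and for 1 of the 24 member probe sets. Control arrays averaged 3055 ± 274 and p190B arrays 2387 ± 313 (SD, n = 6 each). On the log2 scale p190B differed by −0.36 (SE 0.09, 95% interval −0.56 to −0.16). The limma unadjusted p was 0.00177 and the adjusted p 0.228. The exact two-sided permutation p over all 924 assignments of arrays was 0.00216, the smallest that 6 against 6 arrays can give. Groups that do not overlap always reach that value, so it adds nothing to their separation. Itgb8 ranked 209 of 27022 by its limma p.

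When the Gapdh ratio entered the fit the Itgb8 difference was −0.37. It was −0.41 with the Actb ratio and −0.36 with the lymphocyte marker level. Without p190B replicates 1 and 3, the arrays with the highest Actb ratios, it was −0.42. It ran from −0.401 to −0.285 when single arrays were left out, the smallest being without p190B replicate 2. The adjusted p lay between 0.164 and 0.733 over all these and the other settings.

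The window of 250 bases before the start of Itgb8 is shown because this subunit gave the lowest p among the members. It lies at chr12:119238277-119238526 on the minus strand (RefSeq, GRCm38.p6), and its 5′ to 3′ sequence has its motif match in capitals.
Itgb8: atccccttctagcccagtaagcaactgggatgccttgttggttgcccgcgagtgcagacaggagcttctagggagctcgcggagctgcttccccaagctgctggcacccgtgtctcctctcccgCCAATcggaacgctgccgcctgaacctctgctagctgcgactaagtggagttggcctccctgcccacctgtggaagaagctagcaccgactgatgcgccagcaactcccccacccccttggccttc
The match is a CCAAT box (CCAAT) whose first base lies 126 bases before the start. On either strand 33.8% of all 32851 windows of this length hold that motif.

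Itgb5 encodes the beta 5 chain, a partner of alpha v that binds vitronectin. It was read by 4 tested probe sets, and all 4 were higher in p190B. The brightest, 1456133_x_at, ran from 3242.6 over a median of 3551.2 to 3967 units in control cells and from 3312.4 over a median of 4183.8 to 4839.4 in p190B cells. There 5 of 6 p190B arrays lay above all control arrays, while p190B replicate 4 lay inside the control range. Control arrays averaged 3576 ± 309 and p190B arrays 4193 ± 531 (SD, n = 6 each), which is 0.22 on the log2 scale (SE 0.09, 95% interval 0.03 to 0.41, limma unadjusted p 0.0250, adjusted p 0.461). The difference was 0.25 for 1417533_a_at (SE 0.10, adjusted p 0.450), 0.23 for 1417534_at (SE 0.11, adjusted p 0.550) and 0.18 for 1456195_x_at (SE 0.08, adjusted p 0.492) in the same limma fit.

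The 4 Itgb5 probe sets varied together from array to array, so they read the same spread and are not independent tests. Over the 12 arrays their 6 pairwise Pearson correlations ran from 0.917 to 0.975, and Spearman's rho from 0.846 to 0.965. All 6 passed a permutation test for both measures, with adjusted p from 0.000153 to 0.00023 for Pearson's r and from 0.00023 to 0.00348 for rho, over the 23 pairs of probe sets of the same gene. The lowest r was 0.853 after the 2 arrays farthest from the median were left out. p190B replicates 3 and 1 were the highest on each of the 4 probe sets, for example 4426.2 and 4152.1 units for 1417533_a_at.

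Those same arrays had the highest Actb ratios, and the Itgb5 difference was smaller when that measure entered the fit. For 1456133_x_at it was 0.08 when the fit held the Actb ratio and 0.09 when it held the Gapdh ratio. It was 0.13 with p190B replicates 1 and 3 left out. Both ratios ran partly with genotype, so these fits cannot tell RNA quality and genotype apart. The part of RNA quality in the difference was not tested. For 1456195_x_at the difference was 0.004 with the Gapdh ratio. The lymphocyte level as a covariate left the difference of 1456133_x_at at 0.22, and its adjusted p ran from 0.289 to 0.896 over all settings. The unadjusted limma p was over 0.05 in 9 of 28 other settings for 1456133_x_at, in 7 for 1417533_a_at and in 12 for 1456195_x_at, whereas for Itgb8 it was so in 0 of 28.

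The corresponding window for Itgb5 is shown as that of the member with the lowest p among those higher in p190B. It lies at chr16:33829415-33829664 on the plus strand (RefSeq, GRCm38.p6), again with matches in capitals.
Itgb5: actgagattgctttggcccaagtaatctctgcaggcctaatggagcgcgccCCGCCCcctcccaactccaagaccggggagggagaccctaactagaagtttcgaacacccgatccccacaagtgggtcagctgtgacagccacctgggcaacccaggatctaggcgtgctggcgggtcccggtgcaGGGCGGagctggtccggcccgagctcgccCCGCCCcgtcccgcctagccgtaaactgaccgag
It holds the GC box motif (GGGCGG) 1 time on the strand of the gene and 2 times on the other strand, a motif found on either strand in 32.7% of all windows. The TATA box (TATAAA, in 12.4% of all windows) was searched as well. So was the TEAD site (GGAATG, in 12.6%). The AP-1 site (TGANTCA, in 6.7%) was the last searched, and none of these is in either printed window. Such matches describe the letters only.

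Itgav, the alpha chain that both Itgb5 and Itgb8 products need, was read by 3 tested probe sets, all lower in p190B. The brightest, 1452784_at, ran from 10101 over a median of 11197.4 to 12328.7 units in control and from 9390.8 over a median of 10065 to 11480 in p190B, and 3 of 6 p190B arrays lay below all control arrays. The log2 difference was −0.14 (SE 0.06, 95% interval −0.28 to −0.01, limma unadjusted p 0.0381, adjusted p 0.497). The unadjusted limma p of this probe set was over 0.05 in 8 of 28 other settings: without the eBayes trend (0.0733), with the replicate block (0.0699), and without control replicate 2, 5 or 6 or p190B replicate 2, 4 or 5 (up to 0.0911). The probe sets 1421198_at and 1432296_a_at gave −0.15 (SE 0.11) and −0.14 (SE 0.27). The last of these gave 0.46, the opposite sign, once the Gapdh ratio was in the fit.

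**Figure D2:**
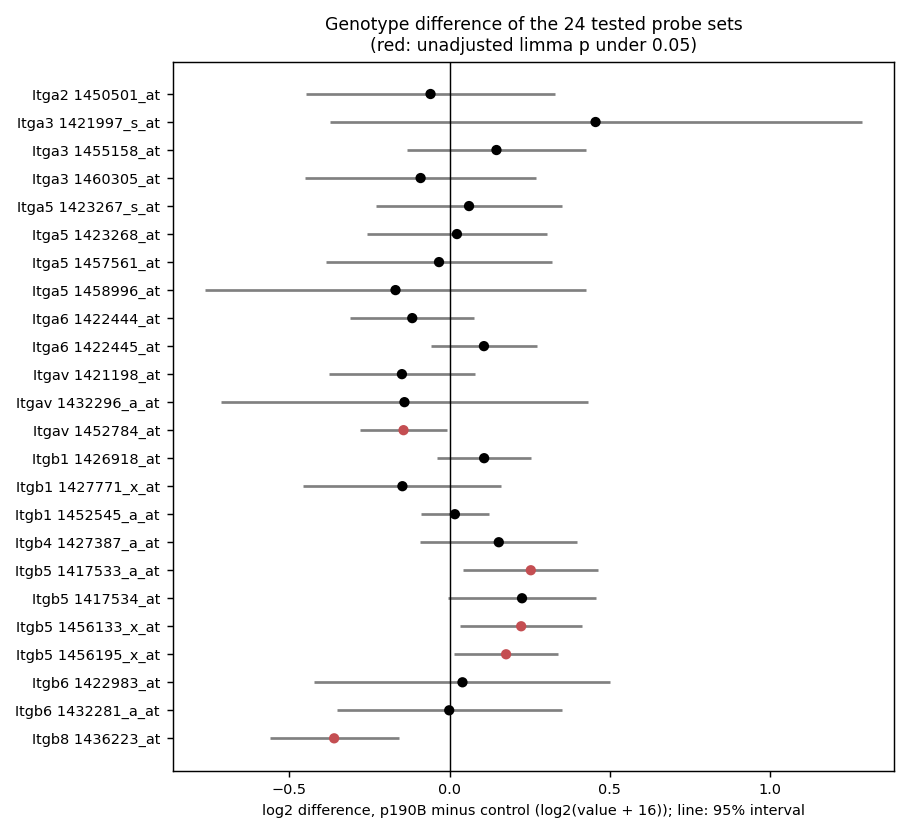
Log2 difference between p190B and control on the log2(value + 16) scale (horizontal axis) for each of the 24 tested integrin probe sets, with 95% limma intervals as lines. Red points have an unadjusted limma p under 0.05: Itgb8 and Itgav 1452784_at to the left, and 3 of the 4 Itgb5 probe sets to the right.

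Itgb6, the beta chain found in epithelia that also activates TGF-beta with alpha v, was dim. Its brighter probe set 1432281_a_at ran from 185.7 to 332.6 units in control and from 219.8 to 374.2 in p190B. The log2 difference was −0.0016 (SE 0.16), with a 95% interval of −0.35 to 0.35. Differences inside that interval are compatible with the values. It is no limit of detection, since larger ones could also miss a threshold adjusted over the whole array. The other probe set, 1422983_at, gave 0.04 (SE 0.22).

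The subunits of the laminin receptors are alpha 3 and alpha 6, which pair with beta 1, and beta 4, which joins alpha 6 in hemidesmosomes and ties laminin to keratin filaments. Itga6 was bright on both of its probe sets, which went opposite ways. For 1422445_at the levels ran from 10810.9 to 14347 units in control and from 12306.4 to 16017.7 in p190B, a log2 difference of 0.11 (SE 0.08). It was −0.05 once the Gapdh ratio was in the fit. For 1422444_at they ran from 6988.9 to 8780.2 and from 6514.7 to 9425.6, a difference of −0.12 (SE 0.09). p190B replicate 1 was the highest array on both.

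Itgb4 ran from 776.7 over a median of 940.1 to 1187.8 units in control and from 928.8 over a median of 1021.3 to 1372.2 in p190B, a log2 difference of 0.15 (SE 0.11, limma adjusted p 0.733). The groups overlapped, with only p190B replicate 3 above all control arrays. Itga3 was read by 3 tested probe sets. Its brightest, 1455158_at, averaged 1332 ± 121 in control cells and 1501 ± 336 in p190B cells (SD, n = 6 each), or 0.15 on the log2 scale (SE 0.13). The p190B arrays were the more scattered here, with 3 above and 1 below all control arrays. The same probe set gave −0.04 once the Actb ratio was in the fit. The dimmer 1421997_s_at gave 0.46 (SE 0.39), which was 0.053 without control replicate 4, its lowest array at 48.3 units, and 0.025 once the Actb ratio was in the fit. The remaining 1460305_at gave −0.09 (SE 0.17).

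Itgb1, the beta chain shared by most matrix receptors, differed little. For 1452545_a_at the levels ran from 8017.4 to 8932.4 units in control and from 8034.6 to 8874.6 in p190B, so the control range contained the p190B range. The log2 difference of 0.02 (SE 0.05) had a 95% interval of −0.09 to 0.12, the narrowest of the members, and was −0.016 with arrays scaled to equal medians. The second bright probe set, 1426918_at, gave 0.11 (SE 0.07, limma adjusted p 0.674), with 4 of 6 p190B arrays above all control arrays, and 1427771_x_at gave −0.15 (SE 0.14).

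Itga2, the alpha chain of a collagen receptor, was close to the filter. It ran from 138.9 to 177.8 units in control and from 88.2 to 221.2 in p190B, a log2 difference of −0.06 (SE 0.18). Itga5, the alpha chain of the fibronectin receptor, had 4 tested probe sets with log2 differences from −0.17 to 0.06. The lowest, of 1458996_at (SE 0.28), moved widely, to −1.1 with the Gapdh ratio in the fit, −0.639 with the Actb ratio and −0.489 without p190B replicates 1 and 3. It ran from −0.349 without p190B replicate 1 to −0.026 without p190B replicate 4. The brightest, 1423267_s_at, ran from 526.7 to 836.4 units in control and from 597.5 to 875.4 in p190B. Its difference of 0.06 (SE 0.14) was −0.27 once the Gapdh ratio was in the fit. Limma adjusted p-values for Itga2 and Itga5 lay between 0.908 and 0.978.

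**Figure D3:**
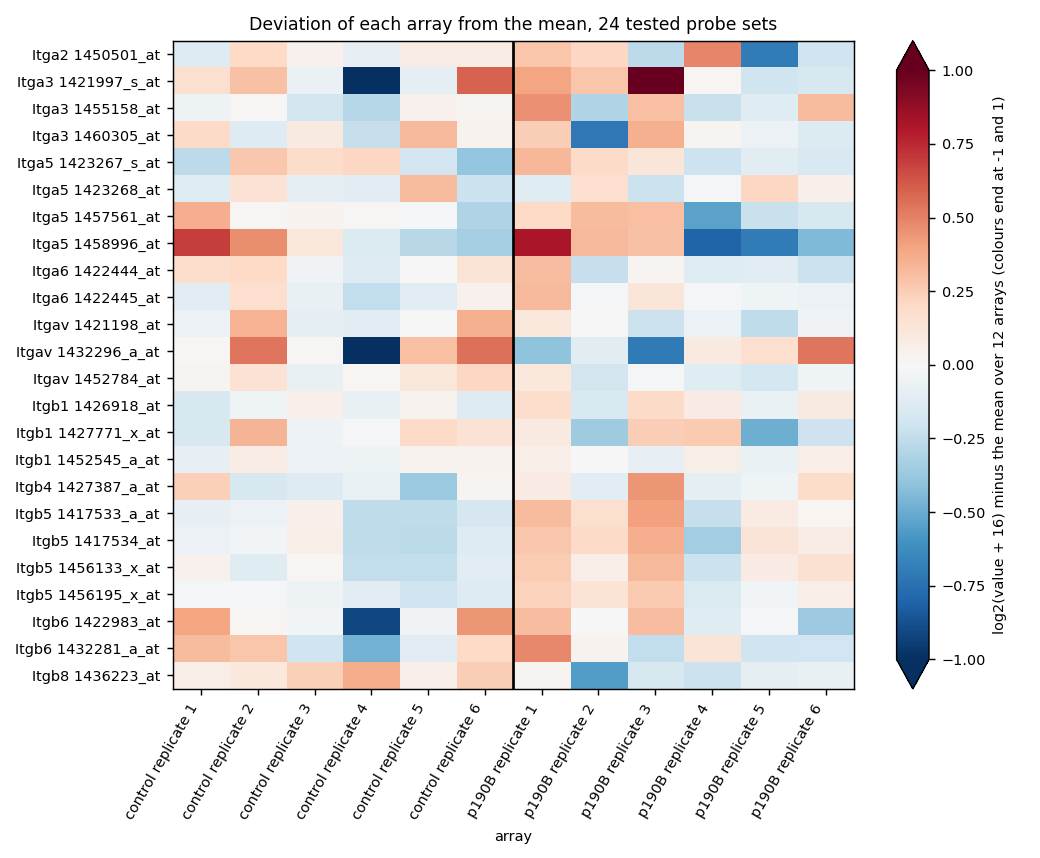
Deviation of each array (columns) from the mean over 12 arrays, in log2(value + 16), for the 24 tested integrin probe sets (rows). The 4 Itgb5 rows show the same pattern, highest on p190B replicates 1 and 3, and the darkest blue cells of control replicate 4 belong to dim probe sets of Itga3, Itgav and Itgb6.

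The arrays were also used to ask whether chains known to form a receptor varied together. Over the 12 arrays 0 of 9 partner pairs passed a permutation test with p adjusted over the 9 pairs, by Pearson's r or by Spearman's rho, and 2 had an unadjusted p under 0.05 for r. One was Itga2 with Itgb1 (r = 0.63, permutation p = 0.0221, adjusted 0.122, rho = 0.60, permutation p = 0.0423, adjusted 0.191), with r = 0.565 when the 2 arrays farthest from the Itga2 median were left out. Within genotypes it was 0.87 in control and 0.72 in p190B. The second was Itgav with Itgb8 (r = 0.63, permutation p = 0.0271, adjusted 0.122, rho = 0.66, permutation p = 0.0248, adjusted 0.191). For that pair r was −0.23 within control, 0.67 within p190B and 0.37 without the 2 farthest arrays, so it did not hold within both genotypes. Itga6 with Itgb4, the hemidesmosome pair, gave r = 0.26 (permutation p = 0.411, adjusted 0.528) and rho = 0.19 (permutation p = 0.558, adjusted 0.561), with r = 0.25 without the 2 farthest arrays.

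Levels of the alpha subunits Itga3 and Itga6 varied with markers of cell types. Itga3 was lower where lymphocyte markers were higher (r = −0.87, permutation p = 0.00019, adjusted 0.0076 over 40 pairs of 10 members and 4 marker lists, rho = −0.89, permutation p = 0.00019, adjusted 0.0076). This held within control (r = −0.865) and within p190B (r = −0.96), and r was −0.895 without the 2 farthest arrays. All 10 members had a negative r with the lymphocyte level, and only that of Itga3 passed. Some were near 0, such as Itga2 (−0.056) and Itgb8 (−0.114). Within control r was positive for Itgb8 (0.863), Itgb4 (0.488), Itga5 (0.353) and Itgb5 (0.198), and negative for the others. The share of all tested probe sets with a negative r was not counted, so the sign is not read as a trait of the members. Itga3 was higher where basal and myoepithelial markers were higher (r = 0.77, permutation p = 0.00362, adjusted 0.0362), although rho missed the threshold (0.80, permutation p = 0.0026, adjusted 0.0520). That r was 0.65 within control, 0.95 within p190B and 0.59 without the 2 farthest arrays. With luminal markers Itga3 gave r = 0.69 (permutation p = 0.0129, adjusted 0.0858, rho = 0.71, permutation p = 0.0133, adjusted 0.142), which did not pass. There r was 0.855 within control, 0.77 within p190B and 0.728 without the 2 farthest arrays, and the basal and luminal relations were not tested against each other.

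Itga6 went with luminal markers (r = 0.82, permutation p = 0.00096, adjusted 0.0192, rho = 0.70, permutation p = 0.0142, adjusted 0.142) and with basal markers (r = 0.76, permutation p = 0.00319, adjusted 0.0362, rho = 0.56, permutation p = 0.0619, adjusted 0.281). Within genotypes the luminal r was 0.80 in control and 0.89 in p190B, and 0.83 without the 2 farthest arrays. The basal r was 0.96 in control, 0.71 in p190B and 0.48 without the 2 farthest arrays. In all, 4 of the 40 pairs passed by Pearson's r and 1 by rho. Without p190B replicate 1 and control replicate 5, the arrays with the fewest lymphocyte transcripts, 1 of 40 passed by r. With the mean of all Itga3 probe sets the lymphocyte relation gave r = −0.70 (permutation, adjusted p 0.0505). The arrays share their scaling to 1 trimmed mean, and the part of scaling and of cell makeup in these relations was not tested.

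**Figure D4:**
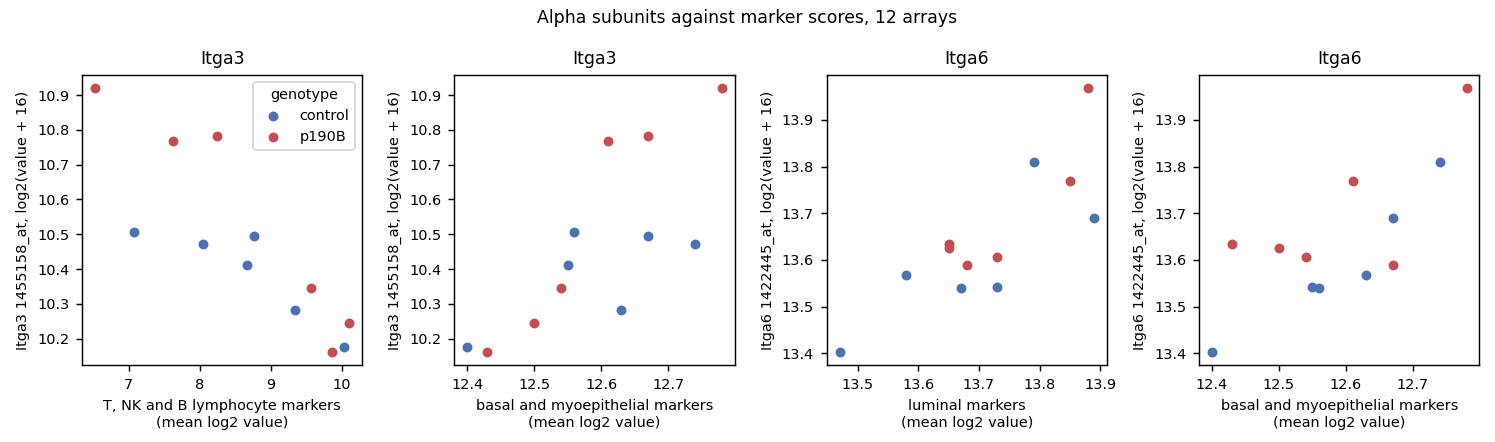
Level of Itga3 (1455158_at) and Itga6 (1422445_at) on the log2(value + 16) scale against the mean log2 level of a marker list, 12 arrays coloured by genotype. Itga3 is lower where lymphocyte markers are higher (r = −0.87), and Itga6 is higher where luminal markers are higher (r = 0.82), among control and among p190B arrays.

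For each member the genes with the most similar profile over the 12 arrays were listed, after the genotype means were taken out. They are the highest of 27022 probe sets and so carry no test. Itgb4 was nearest to Lamb3, a chain of the laminin that alpha 6 beta 4 binds (r = 0.91, rho = 0.90, r = 0.79 without the 2 arrays farthest from the median), and to Fbrs (r = 0.90, 0.74 without those arrays). Itga3 was nearest to Larp4, an RNA-binding protein (r = 0.96), and to Boc, a cell surface co-receptor for hedgehog (r = 0.95). Itga5 was nearest to Antxr2, a receptor of anthrax toxin that binds matrix (r = 0.96), and to the collagen-cutting protease Ctsk (r = 0.94).

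Itga6 was nearest to Afap1, an actin filament protein, and to Osmr, the receptor of oncostatin M (r = 0.98 each, 0.93 without the 2 farthest arrays). Itgav was nearest to the giant cadherin Fat1 (r = 0.97) and to the lipid scramblase Ano6 (r = 0.96). Itgb1 was nearest to Far1 (r = 0.94) and to the hypoxia factor Hif1a (r = 0.93). Itgb5 was nearest to the ubiquitin ligase Ubr1 (r = 0.95) and to Wdr61 (r = 0.92). The dimmer Itgb6 was nearest to Ceacam1 (r = 0.93) and Kctd20 (r = 0.91), and Itga2 to Mrps5 (r = 0.90) and Ctdspl2 (r = 0.87). Without the 2 farthest arrays those of Itga2 were at 0.79 and 0.81. For Itgb8 the nearest, Prtn3 and Slc6a13 (r = 0.90 each), were at 0.80 and 0.68 without the 2 farthest arrays.

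Genes that act with integrins gave no call either. Over 7 lists 69 of 76 genes were tested by their brightest probe set and 0 passed limma's adjusted threshold, with a lowest adjusted p of 0.384. At an unadjusted p under 0.05 there were 3 higher and 3 lower, 8.70% of the genes, beside 9.32% of all tested probe sets. The median log2 difference was 0.06. Values that follow are log2 differences of the 2 genes per list with the lowest p, none of which passed.

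Among 20 tested matrix ligands, Lamb3 gave 0.35 (SE 0.12) and Col1a2, a chain of collagen I, 0.21 (SE 0.09). Higher in p190B were 17 of 20, beside 54.9% of all tested probe sets. These are not independent counts, since some ligands shared low arrays. Control replicate 6, with the lowest fibroblast level (12.69), was the lowest array for Fn1 (11215.8 units), Col1a1 (11233.9) and Col1a2 (23239.5). For Lama3, Lamb3, Lama5 and Tnc that array was not the lowest, and for Mfge8 it was the highest control array (28993.9 units). The count was not repeated without that array. Lamb3 averaged 1854 ± 319 units in control cells and 2365 ± 352 in p190B cells (SD, n = 6 each), with 2 of 6 p190B arrays above all control arrays. Those were p190B replicates 3 (2913.6 units) and 1 (2596.5), the arrays with the highest Actb ratios. All 6 p190B arrays lay above the control median, and 5 of 6 control arrays lay below all p190B arrays. Control replicate 1 (2470.8 units) was the exception. The part of RNA quality in the Lamb3 difference was not tested. Among 6 tested genes of latent TGF-beta, Tgfb2 gave −0.20 (SE 0.11) and Tgfb1 0.14 (SE 0.12). Of 8 hemidesmosome and membrane partners, Cd151, the tetraspanin that binds alpha 3 and alpha 6 integrins, gave −0.17 (SE 0.06) and the tetraspanin Cd9 0.10 (SE 0.06). Cd151 averaged 10453 ± 819 units in control cells and 9300 ± 419 in p190B cells (SD, n = 6 each), and its limma adjusted p was 0.406.

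Of 17 tested activators and adaptors, Lims2 and Lims1, the PINCH proteins that bind integrin-linked kinase, gave −0.34 (SE 0.14) and 0.14 (SE 0.07). Of 4 inhibitors, Sharpin gave 0.13 (SE 0.07) and Itgb1bp1, which keeps beta 1 inactive, −0.14 (SE 0.09). Of 7 other integrins of stroma, muscle and vessels, Itga9 gave −0.24 (SE 0.08) and Itga10 0.30 (SE 0.13). The 7 leukocyte integrins, led by Itgam at 0.20 (SE 0.21) and Itgb2 at 0.22 (SE 0.29), had 0 genes at an unadjusted p under 0.05. Their mean log2 level spanned 1.65 over the arrays, against 0.38 for the list of stroma, muscle and vessels.

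**Figure D5:**
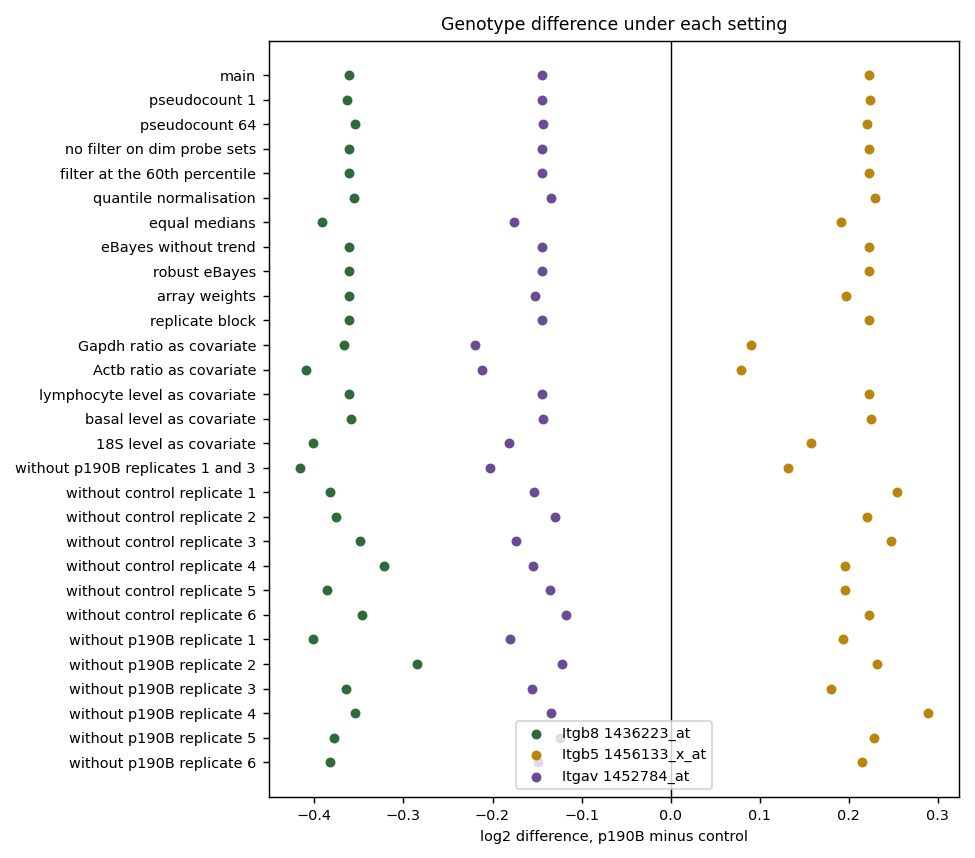
Log2 difference between p190B and control (horizontal axis) of Itgb8, of Itgav and of the brightest Itgb5 probe set under each setting (rows), the top row being the values reported. Itgb8 lies between −0.416 and −0.285, while Itgb5 lies between 0.08 and 0.29, lowest with the Actb ratio in the fit.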

How the data were processed

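Arrays were single-colour Affymetrix, 1 biotinylated cRNA sample each, per the labels' protocols. The authors deposited linear MAS5 intensities, named in the submitters' processing notes without a version. By its values each array had been scaled to a trimmed mean of 1000. MAS5 values of dim probe sets are noisy, and precision is limited by having 6 arrays in each group. Pooling of mice is not stated, and replicates are those the sample titles name.

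Intensities were used as log2(value + 16), a scale that understates changes of dim genes. Probe sets at or above the 40th percentile of the mean log2 value were compared in limma 3.58.1 under R 4.3.3 by lmFit and a trended eBayes, two-sided, with Benjamini-Hochberg adjustment over all 27022. Symbols came from the platform annotation. Of 45037 probe sets 34945 had 1 symbol, 932 several and 9160 none here, and the RefSeq table (GRCm38.p6) changed 0 by Entrez ID. Correlations used the brightest tested probe set, 100000 permutations and Benjamini-Hochberg within each family. Promoter windows were found for 8 of 10 members.

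Members and lists were chosen with earlier results of these data known. Named genes are all member probe sets, the 2 genes with the lowest p of each list and the 2 genes most like each member. Correlations between probe sets of the same gene, the choice of printed windows and the motifs were decided after seeing the values. The fit was tested on simulated data. Alternatives covered the pseudocount, filter, normalisation, eBayes settings, array weights, RNA quality and cell-type covariates, arrays left out and the replicate block. Figures used matplotlib 3.10.9 in Python 3.11.15.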

Additional observations from a re-analysis of the deposited data

Results flagged for a closer look

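Of 48 groups of 6 arrays examined, 24 probe sets in each genotype, 3 held an array far from the others, and chance gives about 1 in 20. All 3 were control replicate 4 on dim probe sets. Itga3 1421997_s_at read 48.3 units there against 267.1 to 439.1 on the other control arrays. Itgav 1432296_a_at read 54 against 124.7 to 187.7, and Itgb6 1422983_at read 56.2 against 116.4 to 168.1. The brighter probe sets of these genes were not apart on that array by the same measure.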

How the results depend on the processing

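No member probe set passed an adjusted p of 0.05 under any setting tried, nor 0.10 in the reported fit, and 0 of the pathway genes passed with every probe set counted or with quantile normalisation. The count at an unadjusted p under 0.05, reported as 5, was 2 with equal medians, 2 with the 18S signal as a covariate (added after seeing the data), 3 without p190B replicates 1 and 3, and 2 to 6 when single arrays were left out. The cause was not tested. Of the 24 differences 11 had the same sign under every setting: Itgb8, the 4 Itgb5 probe sets, Itgav 1452784_at and 1421198_at, Itga3 1421997_s_at, Itga5 1458996_at, Itga6 1422444_at and Itgb1 1427771_x_at. The others changed sign under at least 1 setting, all of them without a call. With the Gapdh ratio as a covariate they were −0.034 for Itga3 1455158_at, −0.269 for Itga5 1423267_s_at, −0.054 for Itga6 1422445_at, 0.458 for Itgav 1432296_a_at, −0.004 for Itgb1 1426918_at and −0.162 for Itgb6 1422983_at. With the Actb ratio they were −0.041 for Itga3 1455158_at, −0.109 for Itga5 1423267_s_at, −0.016 for Itga6 1422445_at, 0.18 for Itgav 1432296_a_at, −0.001 for Itgb4 and −0.17 for Itgb6 1422983_at. Without p190B replicates 1 and 3 they were −0.008 for Itga3 1455158_at, −0.038 for Itga5 1423267_s_at, 0.102 for Itgav 1432296_a_at and −0.106 for Itgb6 1422983_at. With the 18S signal they were −0.003 for Itga5 1423267_s_at, 0.103 for Itgav 1432296_a_at, −0.022 for Itgb6 1422983_at and 0.074 for Itgb6 1432281_a_at, and with the basal level 0.002 for the last. Quantile normalisation gave −0.019 for Itga5 1423268_at and −0.019 for Itgb6 1422983_at, and equal medians −0.007 for Itga5 1423268_at and −0.016 for Itgb1 1452545_a_at. Leaving out single arrays gave ranges on both sides of 0 for Itga2 (−0.164 to 0.074), Itga3 1460305_at (−0.171 to 0.042), Itga5 1423267_s_at (−0.01 to 0.12), Itga5 1423268_at (−0.018 to 0.089), Itga5 1457561_at (−0.1 to 0.07), Itgb6 1422983_at (−0.139 to 0.131) and Itgb6 1432281_a_at (−0.097 to 0.061).

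Replicate numbers are shared between genotypes, and the sample titles do not say whether they pair the arrays. With genotype means taken out, correlations of same-numbered arrays ran from −0.29 to 0.41. Only control replicate 4 (0.41) had its same-numbered array as its best match among the p190B arrays. These values cannot decide whether arrays were paired by a shared day or batch. With the replicate number as a block the count at an unadjusted p under 0.05 was 5, and 0 probe sets passed. Of the partner correlations, 2 changed sign and passed under neither setting. Itga5 with Itgb1 gave r = −0.028 over the 12 arrays and 0.023 with quantile normalisation. Itgav with Itgb5 gave r = −0.216 over the 12 arrays and 0.227 with genotype means taken out. Within genotypes the latter was −0.392 in control and 0.605 in p190B. The marker pairs that passed were 4, and 1 without the 2 arrays of lowest lymphocyte level, a choice made after seeing the data. Array intensities have no read depth, so signal near background limits Itga2 and Itgb6.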
